A study of Mus musculus with 4 samples.

Results

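Markers of liver cells other than T cells were followed through RNA sequencing libraries of sorted liver T cells. The markers are 37 genes of Kupffer cells and macrophages, neutrophils, antigen-presenting cells, sinusoidal endothelium, hepatocytes and B cells. They were taken by gene symbol from the 17454 rows of the deposited table, and all 37 had a row. The libraries came from livers of adult C57BL/6 mice, from live cells (7-AAD-) that carried CD45 and CD3 but not NK1.1, CD4 or CD8, which is the gate of double negative T cells. The mice had been fed a methionine-choline deficient diet, which is widely used to produce fatty, inflamed liver in mice, or a normal diet. Each diet has 2 libraries, called replicates 1 and 2 after their titles. The labels give neither the length of feeding nor which animals went into which library. The p-values therefore describe the spread among these 4 libraries, which may be technical.

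A liver holds many cell types beside T cells. Kupffer cells are its resident macrophages and clear particles from the blood, sinusoidal endothelial cells line its capillaries and take up waste molecules, and hepatocytes secrete most plasma proteins. Neutrophils and monocytes enter from the blood, and dendritic cells, macrophages and B cells present peptides on class II molecules, which mouse T cells do not normally make. The gate for CD3 should remove all of these cells, so their transcripts in the sorted libraries are called carry-over here, a name for the signal and not for how it arose.

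The values are taken as FPKM, a level scaled by transcript length and by the fragments mapped in a library. They summed to 373642 and 384322 in the deficient diet libraries and to 389403 and 370112 in the normal diet libraries. T cell genes were abundant in each library. Cd3e, a chain of the CD3 complex, stood at 496.1 and 700.3 FPKM in deficient diet replicates 1 and 2, and at 460.0 and 348.3 FPKM in normal diet replicates 1 and 2. Of the genes that the gate excludes, Cd4 did not exceed 4.11 FPKM, Cd8b1 25.2 FPKM and Klrb1c, which encodes NK1.1, 18.3 FPKM in any library. Cd8a had 0.836 and 1.42 FPKM on the deficient diet and 22.4 and 8.26 FPKM on the normal diet.

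The carry-over differed more between libraries of the same diet than between the diets. Summed over the 37 markers it came to 5917 and 2842 FPKM in deficient diet replicates 1 and 2, and to 1121 and 5771 FPKM in normal diet replicates 1 and 2. These sums were 1.58% and 0.740% of the library on the deficient diet, and 0.288% and 1.56% on the normal diet. Normal diet replicate 1 was thus the poorest in these transcripts and normal diet replicate 2 one of the 2 richest, with the deficient diet libraries overlapping that range. Without Cd74, Lyz2 and H2-Ab1, the 3 most abundant markers, the shares were 0.612% and 0.308% on the deficient diet and 0.163% and 0.733% on the normal diet. Normal diet replicate 2 was then above deficient diet replicate 1, which with all 37 markers had been level with it. Without Plac8 and Mmp9, the 2 markers that passed between the diets (below), the shares were 1.57% and 0.726% on the deficient diet and 0.217% and 1.49% on the normal diet. Other leukocytes also express both, as they do some of the markers kept. In bulk RNA, more cells of a type and more RNA per cell cannot be told apart.

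The T cell list moved much less, and in the opposite direction within each diet. Its 13 genes held 0.794% and 0.880% of the deficient diet libraries and 0.904% and 0.773% of the normal diet libraries. All 13 T cell genes were lower in normal diet replicate 2 than in replicate 1, by 0.09 to 0.48 on the log2(FPKM + 1) scale. Only 1 of the 13 was higher in deficient diet replicate 1 than in replicate 2. Within each diet the library with more carry-over therefore held slightly less T cell signal. The share of carry-over moved far more than the share of T cell genes.

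**Figure D1:**
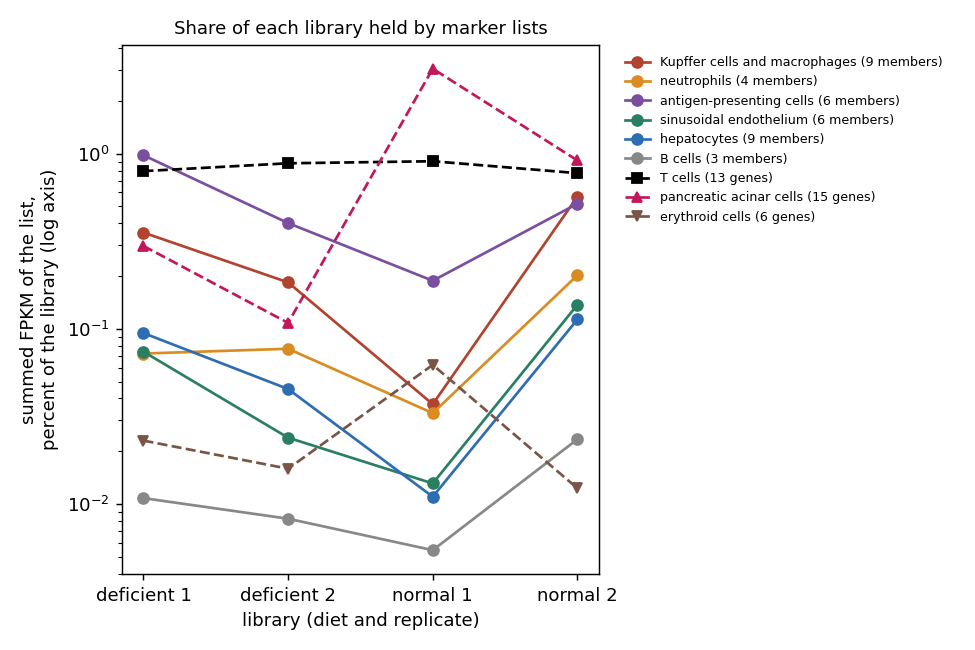
Summed FPKM of each marker list as a percentage of all FPKM in the library, on a log axis, for deficient diet replicates 1 and 2 and normal diet replicates 1 and 2; each point is 1 list in 1 library and lines only join points of a list. The 6 lists of non-T liver cells are lowest in normal diet replicate 1, while the 15 pancreatic acinar genes are highest there, at 3.05%, and the T cell genes stay between 0.773% and 0.904%.

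Among Kupffer cell and macrophage genes the summed level was 14.5-fold higher in normal diet replicate 2 than in replicate 1. That was the widest such ratio of the 6 lists, but single genes set this ranking. Lyz2, the lysozyme of macrophages and other myeloid cells, had 1197 and 662.7 FPKM in the deficient diet libraries and 140.4 and 1934 FPKM in the normal diet libraries. It made up most of the list's sums there, 144.6 and 2099 FPKM. The neutrophil ratio, 5.81, included Mmp9, which was lower in replicate 2. The other neutrophil markers, S100a8, S100a9 and Lcn2, were 20.1-fold, 12.55-fold and 13.5-fold higher in replicate 2. C1qa, C1qb and C1qc encode the chains of complement C1q, which macrophages make. C1qa had 31.3 and 11.5 FPKM on the deficient diet and 1.30 and 52.2 FPKM on the normal diet. C1qb had 35.4 and 11.1 FPKM on the deficient diet and 0.133 and 36.4 FPKM on the normal diet, and C1qc had 18.2 and 5.89 FPKM against 0.134 and 20.2 FPKM. All 3 chains were nearly lost from normal diet replicate 1, and together they were 69.6-fold higher in replicate 2 than in replicate 1 of that diet, while deficient diet replicate 1 was 2.98-fold above replicate 2.

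The surface receptors of resident Kupffer cells followed the same order with lower levels. Clec4f, a lectin found on Kupffer cells in the mouse, had 2.46 and 1.63 FPKM on the deficient diet, and on the normal diet it was listed at 0 in replicate 1 and at 18.5 FPKM in replicate 2. Vsig4, a receptor for complement fragments, had 4.32 and 1.74 FPKM on the deficient diet and 0.119 and 10.2 FPKM on the normal diet. Cd5l, a secreted protein of tissue macrophages, had 3.93 and 0.407 FPKM on the deficient diet and 0.355 and 10.5 FPKM on the normal diet. The full order, from normal diet replicate 2 through deficient diet replicates 1 and 2 down to normal diet replicate 1, was found in 7 of the 9 genes of this list.

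The remaining pair of macrophage genes departed from that order. Csf1r, the receptor for macrophage colony-stimulating factor, was highest on the deficient diet, with 25.9 and 10.4 FPKM there and 1.80 and 16.9 FPKM on the normal diet. Marco, a scavenger receptor of macrophages, had 4.52 and 2.10 FPKM on the deficient diet and 0.359 and 0.238 FPKM on the normal diet. Marco was the only one of the 35 tested markers with both deficient diet libraries above both normal diet libraries, against 30.7% of all tested genes, and it did not pass (limma adjusted p = 0.0912). It met the filter of 1 FPKM in 2 libraries only through the deficient diet libraries, which favours such a separation. The proportions among macrophage genes therefore varied by library. Clec4f stood at 0.0785 and 0.141 of the level of C1qa in the deficient diet libraries and at 0.354 of it in normal diet replicate 2, and Marco at 0.144 and 0.182 of C1qa against 0.00456 in the same library. In normal diet replicate 1 C1qa itself was near 1 FPKM, which leaves such ratios there uninterpretable.

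The neutrophil list split. S100a8 and S100a9 encode the paired subunits of calprotectin, an abundant cytoplasmic protein of neutrophils. S100a8 had 128.4 and 146.8 FPKM in the deficient diet libraries and 17.7 and 357.0 FPKM in the normal diet libraries. S100a9 had 129.9 and 137.8 FPKM on the deficient diet and 26.9 and 337.6 FPKM on the normal diet. Both genes were about equal in the 2 deficient diet libraries, unlike the macrophage genes, and far apart in the normal diet libraries. S100a9 stood at 1.01 and 0.938 of the level of S100a8 on the deficient diet and at 1.52 and 0.946 of it on the normal diet. Lcn2, the iron-scavenging protein lipocalin 2, had 3.59 and 1.53 FPKM on the deficient diet and 0.429 and 5.80 FPKM on the normal diet.

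Mmp9, a gelatinase stored in neutrophil granules and also made by other leukocytes, ran against the rest of the list. It had 7.99 and 9.24 FPKM in the deficient diet libraries and 83.4 and 46.6 FPKM in the normal diet libraries. It was higher in normal diet replicate 1, where the other 3 neutrophil markers were at their lowest, than in replicate 2. Outside the markers, Ltf and Ngp of a further neutrophil list were also higher in both normal diet libraries, and neither passed. Ltf had 0.9401 and 0.393 FPKM on the deficient diet and 5.26 and 3.998 FPKM on the normal diet. Ngp had 8.05 and 6.55 FPKM on the deficient diet and 15.9 and 22.01 FPKM on the normal diet. Of the 11 tested genes of that list, the 9 others were at least 1 log2 unit higher in normal diet replicate 2 than in replicate 1.

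The class II chain genes H2-Aa, H2-Ab1 and H2-Eb1 were abundant and, with Cd74, moved in near-constant proportion. Together with Cd74 their sum was 3599 and 1499 FPKM on the deficient diet and 541.3 and 1717 FPKM on the normal diet, which exceeded Lyz2 in each library except normal diet replicate 2. Cd74, the invariant chain that escorts class II molecules, had 1328 and 560.8 FPKM in the deficient diet libraries and 187.7 and 649.8 FPKM in the normal diet libraries. H2-Ab1 and H2-Aa encode the beta and alpha chains of the I-A molecule. H2-Ab1 had 1106 and 433.7 FPKM on the deficient diet and 160.2 and 474.9 FPKM on the normal diet. H2-Aa had 850.0 and 371.5 FPKM on the deficient diet and 141.3 and 440.4 FPKM on the normal diet, and H2-Eb1, the beta chain of I-E, 314.5 and 133.1 FPKM against 52.1 and 152.3 FPKM. All 4 were highest in deficient diet replicate 1, at 2.29-fold to 2.55-fold the level of replicate 2, and lowest in normal diet replicate 1. Outside the markers, the related gene H2-DMb1 had the same order of libraries. H2-DMa, H2-DMb2 and H2-Ob were highest in normal diet replicate 2, and H2-Oa in deficient diet replicate 2. Ciita, the master activator of class II transcription, was low, at 2.01 and 1.25 FPKM on the deficient diet and 0.583 and 2.32 FPKM on the normal diet.

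The closeness of a pair of genes was measured as the SD, over the 4 libraries, of the difference of their log2(FPKM + 1) levels. Over all 435 pairs of the 30 tested markers with a mean of at least 5 FPKM that SD ran from 0.0477 to 3.57. The 6 pairs among Cd74, H2-Aa, H2-Ab1 and H2-Eb1 lay between 0.0477 and 0.124, and H2-Aa with H2-Eb1 was the closest pair of all. The promoters of that closest pair are shown because class II promoters share short elements, among them an inverted CCAAT box, the Y box, and upstream of it the X box, to which the complex that recruits CIITA binds. Each line gives the 150 bases before the RefSeq gene start in GRCm38.p6, 5′ to 3′ on the strand of the gene. H2-Aa is at chr17:34287824-34287973 on the minus strand and H2-Eb1 at chr17:34305717-34305866 on the plus strand. Capitals mark CCAAT or its complement ATTGG, and GCAAC, found in these windows without its complement GTTGC. No 2 marked matches overlap.
H2-Aa: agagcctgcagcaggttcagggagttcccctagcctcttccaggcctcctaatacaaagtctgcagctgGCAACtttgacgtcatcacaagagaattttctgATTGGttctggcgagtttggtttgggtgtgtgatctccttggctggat
H2-Eb1: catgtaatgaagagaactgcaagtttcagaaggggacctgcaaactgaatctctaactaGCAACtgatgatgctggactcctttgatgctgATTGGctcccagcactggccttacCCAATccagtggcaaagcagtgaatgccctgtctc
In H2-Aa, ATTGG began 48 bases and GCAAC 81 bases before the gene start. In H2-Eb1, ATTGG began 59 bases, GCAAC 91 bases and a further CCAAT 35 bases before it. Both motifs, on either strand, occurred in 5.0% of the 32851 promoter windows of the same length, CCAAT in 24.5% and GCAAC in 19.6%. The matches describe these windows and do not show binding.

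Plac8, a small cysteine-rich protein of plasmacytoid dendritic cells and monocytes that lymphocytes also express, did not move with class II. It had 53.2 and 41.0 FPKM in the deficient diet libraries and 191.4 and 194.0 FPKM in the normal diet libraries. The normal diet libraries were nearly equal in Plac8 although their C1q levels lay 69.6-fold apart.

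Genes of sinusoidal endothelium were all lowest in normal diet replicate 1. Clec4g, a lectin of these cells, had 120.5 and 30.7 FPKM on the deficient diet and 23.3 and 262.7 FPKM on the normal diet. Fcgr2b, the inhibitory Fc receptor that these cells share with B cells and macrophages, had 115.8 and 29.3 FPKM on the deficient diet and 17.2 and 184.1 FPKM on the normal diet. Kdr, the receptor for vascular endothelial growth factor, had 10.6 and 2.83 FPKM on the deficient diet and 1.73 and 22.2 FPKM on the normal diet. These 3 genes kept together, with Kdr at 0.0880 and 0.0920 of the level of Clec4g on the deficient diet and at 0.0740 and 0.0845 of it on the normal diet. Stab2, a scavenger receptor for hyaluronan, had 7.31 and 2.78 FPKM on the deficient diet and 1.04 and 11.4 FPKM on the normal diet, and Stab1, its relative that macrophages also make, had 7.40 and 5.67 FPKM against 0.868 and 9.11 FPKM. Pecam1, the adhesion molecule CD31 that T cells carry too, was the exception in order, highest in deficient diet replicate 2, with 14.8 and 20.5 FPKM on the deficient diet and 6.75 and 15.8 FPKM on the normal diet.

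Hepatocyte genes were at low levels, and the more abundant of them are made by other cells as well. Apoe, an apolipoprotein of hepatocytes and of macrophages, had 225.8 and 92.3 FPKM on the deficient diet and 24.2 and 241.7 FPKM on the normal diet. Hp, haptoglobin, which hepatocytes secrete and neutrophils store, had 37.4 and 26.8 FPKM on the deficient diet and 2.10 and 68.5 FPKM on the normal diet. Alb, albumin, among the most abundant transcripts of hepatocytes, had only 22.4 and 12.3 FPKM on the deficient diet and 1.91 and 16.3 FPKM on the normal diet. Apoe thus exceeded Alb in each library. Ttr, the thyroxine carrier transthyretin, reached 1.02 FPKM in normal diet replicate 2 and less elsewhere, and Fgb, the fibrinogen beta chain, did not exceed 0.0726 FPKM. These 2 genes did not pass the filter of 1 FPKM in 2 libraries and were not tested.

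The other hepatocyte markers differed in which library was richest. Apoa1, the main protein of high-density lipoprotein, had 18.2 and 12.0 FPKM on the deficient diet and 5.60 and 22.9 FPKM on the normal diet. Apoa2, a second protein of those particles, had 7.57 and 5.76 FPKM on the deficient diet and 0.933 and 27.1 FPKM on the normal diet. Trf, the iron carrier transferrin, had 31.2 and 21.7 FPKM on the deficient diet and 4.77 and 22.0 FPKM on the normal diet. Trf and Alb were highest in deficient diet replicate 1, whereas Apoa1 and Apoa2 were highest in normal diet replicate 2. Serpina1a, an alpha-1 antitrypsin, had 9.92 and 3.20 FPKM on the deficient diet and 3.39 and 20.0 FPKM on the normal diet, and its value is uncertain because it has near-identical copies in the mouse genome.

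The B cell markers stood out in a single library. Cd79a, the alpha signalling chain of the B cell receptor, had 1.74 and 2.27 FPKM in the deficient diet libraries and 2.50 and 14.0 FPKM in the normal diet libraries. Ms4a1, which encodes CD20, had 2.39 and 3.63 FPKM on the deficient diet and 5.23 and 23.9 FPKM on the normal diet. Both were far higher in normal diet replicate 2 than in the other 3 libraries, among which normal diet replicate 1 was the highest. Deficient diet replicate 1, rich in class II transcripts, was thus not rich in these. Cd79b, the beta signalling chain, did not keep proportion with them. It had 36.2 and 25.8 FPKM on the deficient diet and 13.5 and 48.8 FPKM on the normal diet, which set Cd79a at 0.0479 and 0.0882 of the level of Cd79b on the deficient diet and at 0.185 and 0.286 of it on the normal diet.

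**Figure D2:**
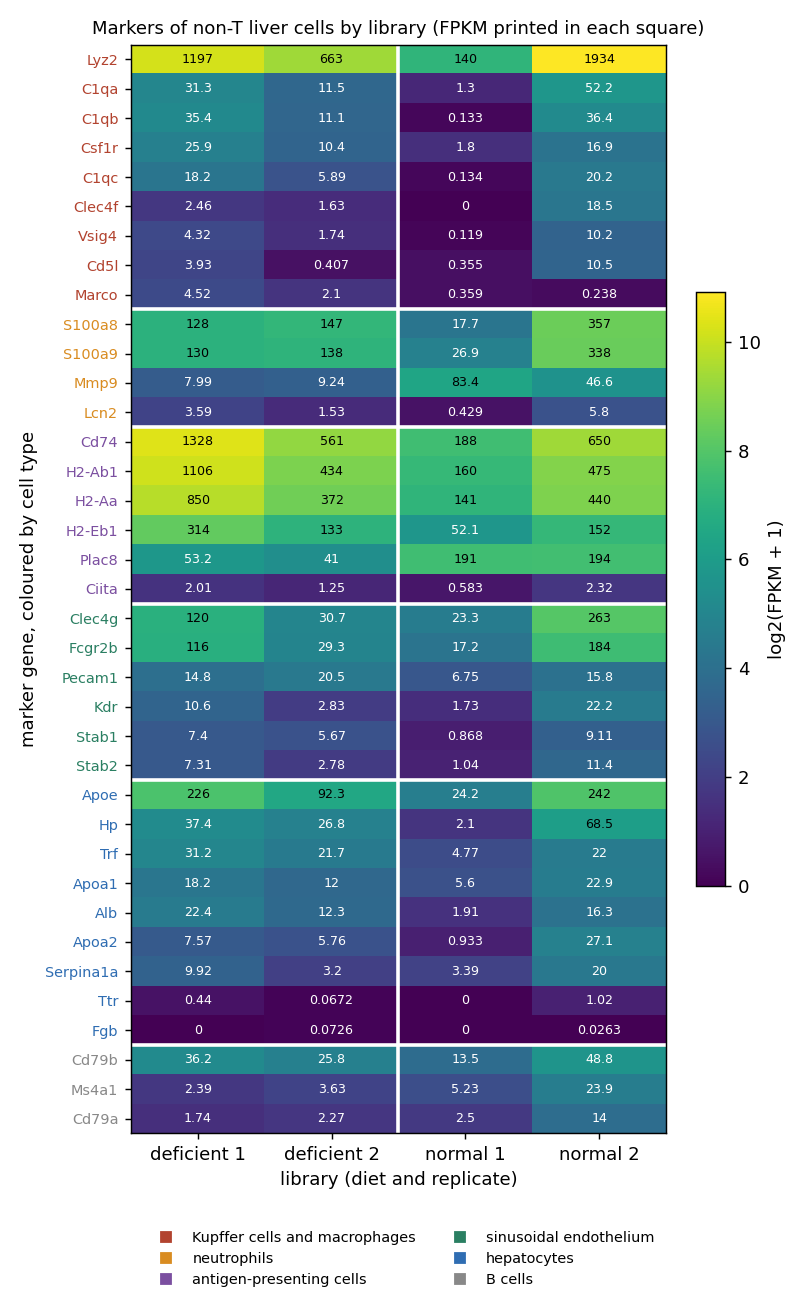
Level of each of the 37 markers in the 4 libraries, with the FPKM printed in each square and the colour showing log2(FPKM + 1); genes are grouped by cell type and columns run from the deficient diet to the normal diet replicates. Normal diet replicate 1 is the darkest column for most genes, while Mmp9 and Plac8 are brighter in both normal diet libraries, at 83.4 and 46.6 FPKM and at 191.4 and 194.0 FPKM.

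How the markers varied together was described by the differences within each diet, which share no library. Of the 35 tested markers, 33 were higher in normal diet replicate 2 than in replicate 1, against 50.8% of all 10423 tested genes. By at least 1 log2 unit it was 32, against 7.65%. The 3 others were Marco, Mmp9 and Plac8. The median of that difference was 2.57 over the markers and 0.0061 over all tested genes. Deficient diet replicate 1 was at least 1 log2 unit above replicate 2 for 15 of the 35, against 5.56% of tested genes, and above it by any amount for 29, against 48.5%. Both differences were positive for 28 markers, against 27.8% of tested genes. The median difference there was 0.85 over the markers, so the deficient diet libraries were closer to each other than the normal diet libraries were. With 1 library on each side these differences have no replicate check.

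The order of the 4 libraries was largely shared. Normal diet replicate 1 was the lowest library for 29 of the 35 markers, against 30.1% of all tested genes. The full order from normal diet replicate 2 through deficient diet replicates 1 and 2 to normal diet replicate 1 held for 19 of the 35, against 5.72% of tested genes. It was the most common order among the markers themselves, which favours them in this comparison. Normal diet replicate 2 was the highest library for 25, against 24.2%, and deficient diet replicate 1 for 8, against 20.5%. The 8 were Marco and 7 others with the same order among themselves, namely Cd74, H2-Aa, H2-Ab1, H2-Eb1, Csf1r, Alb and Trf. Across the 35 markers the differences of the 2 diets had a Pearson r of 0.306 and a Spearman rho of 0.275, against 0.284 and 0.194 across all 10423 genes. These describe genes, which share the libraries and are not independent replicates. The markers thus shared the order more than the size of the steps.

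**Figure D3:**
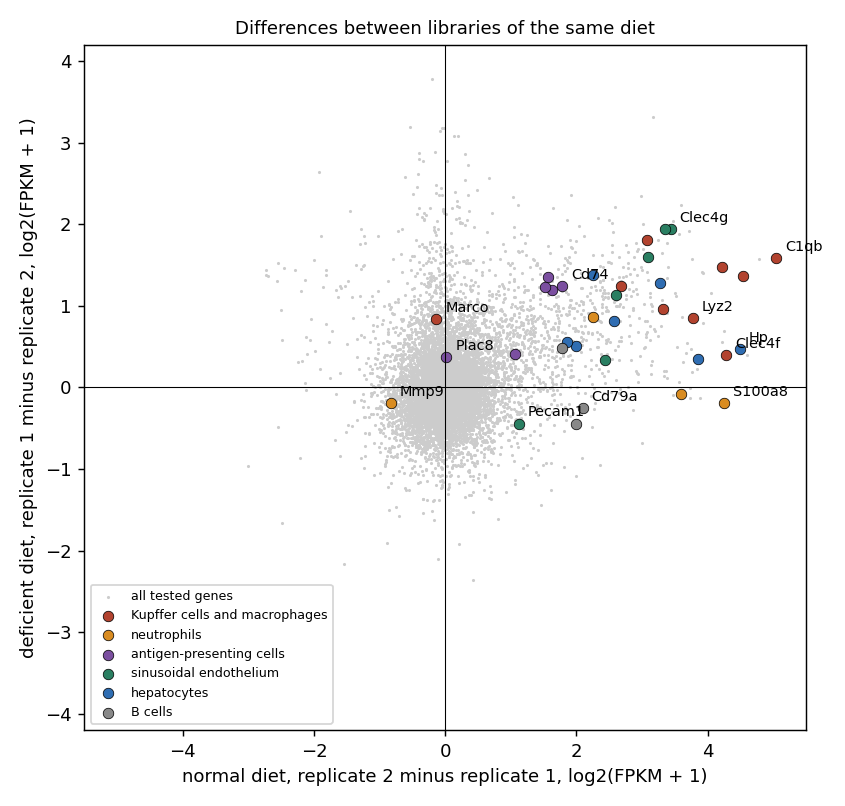
Difference between the normal diet libraries (replicate 2 minus replicate 1, x axis) and between the deficient diet libraries (replicate 1 minus replicate 2, y axis), both in log2(FPKM + 1); each point is a gene, grey for all 10423 tested genes and coloured by cell type for the 35 tested markers. Most markers lie in the upper right, 32 of them at 1 or more on the x axis, while Marco, Mmp9 and Plac8 lie near 0 or below it and S100a8 lies far to the right with a y value of -0.19.

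Proportions within a cell type varied by library for most lists. The median SD of the log2 difference was 0.8 over 67 pairs of markers of the same type and 1.04 over 368 pairs of different types, a description in which pairs share genes. It was 0.119 over 10 antigen-presenting pairs, of which the 4 with Plac8 had SDs of 1.98 to 2.08, 0.626 over 15 endothelial pairs, 0.8 over 15 macrophage pairs and 21 hepatocyte pairs, 0.928 over 3 B cell pairs and 2.58 over 3 neutrophil pairs, which include Mmp9. Some pairs of different types were as close as pairs of the same type. Alb and Csf1r had an SD of 0.176, and Apoa1 and Cd79b one of 0.0745.

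The study asked how gene expression differed between the diets. Of the 35 tested markers 2 passed, Mmp9 and Plac8, both lower on the deficient diet, against 2.74% of all tested genes in either direction and 1.53% in that direction. None of the 35 was called higher, against 1.22% of tested genes, and 3 had an unadjusted p under 0.05 in limma, against 22.8%. Mmp9 averaged 8.61 ± 0.885 FPKM on the deficient diet and 65.0 ± 26.0 FPKM on the normal diet (SD, n = 2 each), a log2 change of -2.72 ± 0.31 (SE) with a limma adjusted p of 0.0364. Plac8 averaged 47.1 ± 8.61 FPKM on the deficient diet and 192.7 ± 1.84 FPKM on the normal diet, a change of -2.02 ± 0.17 with a limma adjusted p of 0.0323. Both genes had diets that did not overlap, and both are among the 3 markers that did not share the difference between the normal diet libraries. Neither passed with any 1 of normal diet replicate 1, deficient diet replicate 1 or deficient diet replicate 2 left out, where the limma adjusted p lay between 0.0750 and 0.245, and where none of all genes passed (1670, 2029 and 1337 genes had an unadjusted p under 0.05). Neither passed with the replicate number as a block (limma adjusted p of 0.0846 for Mmp9 and 0.0793 for Plac8) or with no filter on low values (0.147 for each). Without the mean-variance trend Mmp9 did not pass (limma adjusted p = 0.0513) and Plac8 did (0.0490).

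The other 33 tested markers did not pass. The diets did not overlap for 5 of the 35, namely Marco, Mmp9, Plac8, Cd79a and Ms4a1, against 56.2% of all tested genes. Fitted changes were above 0 for 26 of 35, against 53.2% of tested genes, with a median of 0.47 on the log2 scale over the markers and 0.04 over all. The fit compares mean log2 levels, in which a low library weighs more than in mean FPKM. Among those 26, mean FPKM was lower on the deficient diet for C1qa, Vsig4, Lyz2, S100a8, S100a9, Lcn2, Stab2, Fcgr2b, Apoa2, Hp and Cd79b. Lyz2 averaged 929.6 ± 378 FPKM on the deficient diet and 1037 ± 1268 FPKM on the normal diet, where the normal diet SD exceeded the mean, and its log2 change was 0.77 ± 1.25 (limma adjusted p = 0.769). H2-Aa, H2-Ab1, H2-Eb1 and Cd74 had the most even changes, between 1.17 and 1.33, with adjusted p values in limma of 0.328 to 0.368. Related genes outside the markers were not so even. Mean FPKM on the deficient diet was 0.402, 0.654 and 0.979 of that on the normal diet for H2-Ob, H2-DMb2 and H2-DMa. For H2-DMb1 and H2-Oa it was 1.64 and 2.22 of it. Cd79a and Ms4a1 had changes of -1.27 and -1.65 (limma adjusted p of 0.365 and 0.249).

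The direction of most markers differed with the normal diet library used. Without normal diet replicate 1 the median change of the markers was -1.09, with 27 of 35 lower on the deficient diet. Without normal diet replicate 2 it was 1.86, with 30 of 34 higher. In that second fit 9 of 34 markers passed, against 3.54% of the 9940 genes tested in it. The 7 called higher on the deficient diet were C1qb, Lyz2, S100a8, S100a9, Alb, Hp and Trf, against 2.08% of the genes tested. The 2 called lower were Mmp9 and Plac8, against 1.46%. S100a8 had a change of 2.88 in that fit (limma adjusted p = 0.0169) and of -1.37 without normal diet replicate 1 (0.0888). In such fits only the diet with both libraries gives a spread, and the lone library is assumed to vary as much. Without normal diet replicate 2, C1qb met the filter only through the deficient diet libraries, as Marco did in each fit. H2-Aa, H2-Ab1, H2-Eb1 and Cd74 kept a positive change in each fit, between 0.35 and 0.54 without normal diet replicate 1 and between 1.95 and 2.20 without replicate 2, as did Marco, at 1.74 and 1.60. Alb, Trf and Pecam1 also stayed above 0 in each fit with 1 library left out, with lowest values of 0.028, 0.23 and 0.13. Cd79a and Ms4a1 stayed below 0, with highest values of -0.22 and -0.65, as did Mmp9 and Plac8.

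**Figure D4:**
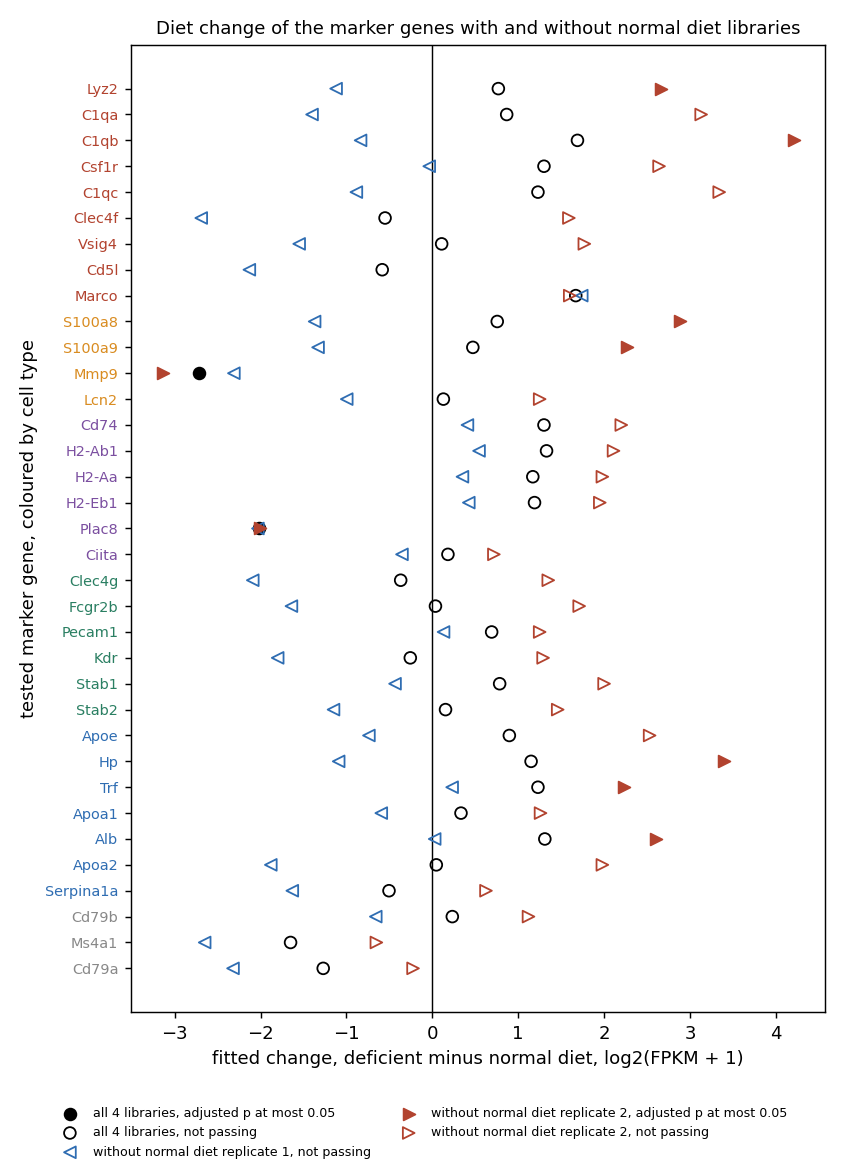
Fitted change of the tested markers, deficient minus normal diet in log2(FPKM + 1), with all 4 libraries (circles), without normal diet replicate 1 (left-pointing triangles) and without normal diet replicate 2 (right-pointing triangles); filled symbols passed an adjusted p of 0.05. For most markers the triangles lie on either side of 0, with medians of -1.09 and 1.86, while Mmp9, Plac8, Marco, Cd74, the 3 class II genes, Alb, Trf, Pecam1, Cd79a and Ms4a1 keep their side.

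Further markers of these cell types, and of some others, were read from 10 lists outside the 37. Of their 87 tested genes, 64 were at least 1 log2 unit higher in normal diet replicate 2 than in replicate 1, again against 7.65% of all tested genes, and none passed between the diets in limma over all genes tested. The share was 17 of 18 for endothelial, 14 of 16 for hepatocyte, 9 of 11 for neutrophil, 8 of 11 for macrophage, 6 of 7 for B cell and 6 of 15 for dendritic cell and monocyte genes. It was 3 of 4 for bile duct, 1 of 1 for stellate cell and 0 of 4 for erythroid genes. Dnase1l3, a nuclease of sinusoidal endothelium, had 105.6 and 27.2 FPKM on the deficient diet and 13.3 and 186.6 FPKM on the normal diet. Spi1, the myeloid transcription factor PU.1, had 59.0 and 25.0 FPKM on the deficient diet and 5.74 and 49.9 FPKM on the normal diet. Hdc, the histamine-forming enzyme of granulocytes, had 68.6 and 46.9 FPKM on the deficient diet and 6.18 and 91.7 FPKM on the normal diet. Normal diet replicate 1 was the lowest library for 57 of the 87 genes, these 3 among them, and for 11 of the 18 endothelial genes. Ehd3, the most abundant gene of the endothelial list over the 4 libraries, was lowest in deficient diet replicate 2, with 129.9 and 91.2 FPKM on the deficient diet and 102.7 and 183.9 FPKM on the normal diet. Hmox1, the haem-degrading enzyme of macrophages, was nearly equal in the normal diet libraries, with 40.6 and 15.6 FPKM on the deficient diet and 13.5 and 14.5 FPKM on the normal diet.

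Some genes of other lists departed from the markers. Ly6c2, a surface antigen of monocytes that T cells also carry, had 181.3 and 272.7 FPKM on the deficient diet and 569.2 and 566.1 FPKM on the normal diet, with the normal diet libraries near equal as for Plac8. Pancreatic acinar genes held 0.297% and 0.108% of the deficient diet libraries and 3.05% and 0.914% of the normal diet libraries. Each of the 15 was lower in normal diet replicate 2 than in replicate 1, with differences of -2.725 to -1.189 in log2(FPKM + 1). All 15 were higher in deficient diet replicate 1 than in replicate 2, the direction of 29 of the 35 markers, so they departed from the markers within the normal diet and not within the deficient diet. Normal diet replicate 1, poorest in liver cell markers, was therefore the library richest in acinar transcripts, and the part of either in the differences of other genes was not tested.

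The genes outside all lists whose pattern lay nearest to that of the markers were sought among 5107 genes with a mean of at least 10 FPKM. Nearness was the Euclidean distance, over the 4 libraries, between log2(FPKM + 1) levels centred on their mean and the median centred levels of the 35 markers. Those levels were 0.64 and -0.12 in the deficient diet libraries and -1.53 and 1.23 in the normal diet libraries. The nearest 10 were Ctsl, Hpgd, Slpi, Ifitm3, Nfam1, Hfe, Cd300ld, Ifitm2, Pld4 and Sirpa, at distances of 0.153 to 0.426. Ctsl, the lysosomal protease cathepsin L, had 39.0 and 21.7 FPKM on the deficient diet and 8.47 and 58.9 FPKM on the normal diet. Ifitm2, an interferon-induced membrane protein, was the most abundant of the 10, with 142.3 and 74.1 FPKM on the deficient diet and 20.6 and 191.2 FPKM on the normal diet.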

How the data were processed

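Trizol was used for RNA and an Illumina TruSeq kit for the libraries, per the labels' protocols. The deposited values were taken as FPKM, which neither the table nor the labels name: they are not whole, reach far below 1 and have a different total in each library. Bowtie 0.12.2 and build mm8 were used, per the submitters' processing notes. No source used here gives the quantifier or annotation.

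Columns were matched to samples by title. Genes that reached 1 FPKM in 2 or more libraries (10423) were fitted as log2(FPKM + 1) with limma 3.58.1 in R 4.3.3 (mean-variance trend, diet as the only factor, Benjamini-Hochberg over all tested genes, threshold 0.05, 2 residual and 2.84 prior degrees of freedom). The step was also run on simulated data, whose noise was independent between genes. Such data lack shifts shared by many genes of a library, so that run cannot vouch for the calls made here. The pseudocount of 1 understates changes of low genes. Total depth, and the precision it gives, is unknown. Among rows below 0.05 FPKM in both libraries the most common log2 ratio to normal diet replicate 1 was -0.01 for normal diet replicate 2, -0.01 for deficient diet replicate 1 and -0.13 for deficient diet replicate 2 (47 of 380, 13 of 271 and 21 of 319 rows). These shares are too small to recover whole reads.

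The 37 markers and all lists were chosen with earlier results of these data known. Named outside the markers were the 3 most abundant genes per list where a result turns on them, a panel for the sort and the 10 nearest genes. The H2-DM and H2-O genes, Ltf and Ngp were also named, with their values known. Adgre1 and Jchain were found under the older symbols Emr1 and Igj. Promoter sequences and their coordinates are RefSeq's, in GRCm38.p6 and not in the build of the deposited values, matched by symbol for 25 of 37 markers. Alternatives were other pseudocounts, filters and scalings, limma without the trend, each library left out and a replicate block.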

Additional observations from a re-analysis of the deposited data

How the results depend on the processing

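With all 4 libraries the markers' median log2 change stayed positive under each alternative run. The count of 286 genes past the threshold became 467 with quantile normalization, 132 relative to the CD3 chain genes, 141 without the trend, and 0 with no filter (2712 genes at an unadjusted p under 0.05 in limma). Of the markers 1 passed without the trend (Plac8) and 0 with no filter (3 at an unadjusted p under 0.05). With the replicate block 0 genes and 0 markers passed in limma (1844 and 4 at an unadjusted p under 0.05). The replicate numbers share only a number. Same-numbered libraries deviated from their diet means with a correlation of -0.284 across genes, and a crossed pairing, chosen after seeing the data, gave 52 genes and 2 markers. With 1 library left out the counts ran from 0 to 352 genes and from 0 to 9 markers, and the median change from -1.09 to 1.86. The cause was not tested. Without its 3 most abundant members the share in deficient diet replicate 1 was 0.612%. Normal diet replicate 2 was the highest library for 25 of 35 markers with equal totals or quantile normalization, 26 relative to the CD3 chain genes and 19 of 28 with a filter of 5 FPKM. Scaling to the CD3 chain genes moved the median change of all tested genes to -0.09, against 0.04.

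Of 378 single-marker values with all libraries 12 changed sign, all of genes that did not pass. Clec4f was 0.63 with a pseudocount of 0.1. With a pseudocount of 5, Vsig4 was -0.16, Lcn2 -0.032, Stab2 -0.026, Fcgr2b -0.0083 and Apoa2 -0.25. With quantile normalization Fcgr2b was -0.0094 and Apoa2 -0.027. Relative to the CD3 chain genes Vsig4 was -0.039, Lcn2 -0.00054, Fcgr2b -0.12 and Apoa2 -0.12. With 1 library left out the ranges that crossed 0 were -1.40 to 3.13 for C1qa, -0.84 to 4.21 for C1qb, -0.88 to 3.34 for C1qc, -2.69 to 1.59 for Clec4f, -1.55 to 1.77 for Vsig4, -2.13 to 0.32 for Cd5l, -0.036 to 2.64 for Csf1r and -1.12 to 2.66 for Lyz2. They were -1.37 to 2.88 for S100a8, -1.33 to 2.27 for S100a9, -0.996 to 1.25 for Lcn2, -0.35 to 0.72 for Ciita, -2.09 to 1.35 for Clec4g, -0.43 to 2.0 for Stab1, -1.15 to 1.46 for Stab2, -1.64 to 1.71 for Fcgr2b and -1.80 to 1.29 for Kdr. They were -0.59 to 1.26 for Apoa1, -1.88 to 1.98 for Apoa2, -0.74 to 2.53 for Apoe, -1.09 to 3.40 for Hp, -1.63 to 0.63 for Serpina1a and -0.66 to 1.12 for Cd79b.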

Other observations

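Transcripts of further cell types were also present, some in the order of the markers and some not. Hba-a1, an alpha globin of red cells, had 60.0 and 39.8 FPKM in the deficient diet libraries and 156.8 and 27.3 FPKM on the normal diet. All 4 tested erythroid genes were lower in normal diet replicate 2 than in replicate 1, with differences of -2.48 to -1.90 in log2(FPKM + 1). Spp1, osteopontin, which bile duct cells and macrophages make, had 175.1 and 85.5 FPKM on the deficient diet and 15.1 and 141.4 FPKM on the normal diet. Dcn, a matrix proteoglycan of stellate cells, had 8.25 and 11.1 FPKM on the deficient diet and 7.58 and 24.1 FPKM on the normal diet. The 5 platelet genes summed to 0.965 and 1.31 FPKM on the deficient diet and to 0.827 and 1.56 FPKM on the normal diet, and none was tested.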
